A study of Mus musculus with 19 samples.

Results

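The 19 hippocampal arrays were divided by their level of Ttr, the transcript of transthyretin, which the choroid plexus makes in large amounts. The members of each class were chosen by this measured level. An array counted as choroid-rich where the brightest Ttr probe stood at or above 7, and as choroid-poor below that. Levels throughout are log2 of the array signal minus the array's 75th percentile, so 1 unit is a 2-fold step. This gave 10 choroid-rich and 9 choroid-poor arrays, and every array of the series fell in 1 of the classes. All arrays carried RNA from the hippocampus of 8-month-old mice. WT littermates on vehicle (DMSO) gave 6 arrays, APP/PS1 mice on vehicle gave 7, and APP/PS1 mice on Urolithin A gave 6. Urolithin A, a compound that gut bacteria make from plant ellagitannins, was gavaged in DMSO from 6 to 8 months of age, 200 mg/kg/day. APP/PS1 mice carry human amyloid precursor protein and presenilin transgenes driven by prion protein promoter elements, and they deposit amyloid. The group sizes equal the animal numbers in the series' design, so each array was taken as 1 mouse. Because a measured level made the classes, Ttr itself was given no test between the classes, and such a test of any other gene asks only whether it went along with Ttr across these arrays.

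The choroid plexus is a fringe of epithelium over a vascular stroma that hangs in the brain ventricles and secretes the cerebrospinal fluid. Its epithelial cells move sodium, chloride, bicarbonate and water, seal the blood from the fluid with tight junctions, and export carriers such as transthyretin and growth factors such as IGF2. The plexus of the lateral ventricle lies against the fimbria, a myelinated tract along the hippocampus, and can come away with a hippocampal dissection, as can ciliated ependymal cells that line the ventricle.

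The classes were spread unevenly over groups and slides. WT on vehicle held 1 choroid-rich array (replicate 3) and 5 choroid-poor ones, APP/PS1 on vehicle held 5 and 2, and APP/PS1 on Urolithin A held 4 and 2. Slide 1, which held all 6 WT arrays and 2 APP/PS1 vehicle arrays, had 3 choroid-rich and 5 choroid-poor arrays. Slide 2 had 4 of each, and slide 3 had 3 choroid-rich arrays alone, Urolithin A replicates 4, 5 and 6. The choroid-rich replicate 2 and the choroid-poor replicates 1 and 3 of that group lay on slide 2. Between 51.4% and 59.4% of probes were well above background on each array, with 55.7% to 59.4% in the choroid-rich and 51.4% to 59.3% in the choroid-poor class. The array of APP/PS1 vehicle replicate 3 was the dimmest in both respects, with a 75th percentile of 664 intensity units against at most 1776 elsewhere. All 13 listed markers of hippocampal pyramidal and granule cells passed the signal filter, and their mean level ran from 1.5 to 2.04 over choroid-rich arrays and from 1.45 to 1.89 over choroid-poor arrays.

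Ttr levels fell into separate ranges on either side of the limit. The choroid-rich arrays ran from 8.33 to 9.40 with a median of 8.69, and their mean was 8.74 ± 0.33 (SD, n = 10). The choroid-poor arrays ran from -2.98 to 4.24 with a median of 2.38, and their mean was 1.80 ± 2.21 (SD, n = 9). The arrays nearest the limit were WT replicate 4 at 4.24 below it and APP/PS1 vehicle replicate 2 at 8.33 above it, a gap of 4.09. Among choroid-poor arrays the lowest Ttr levels were -2.98 in APP/PS1 vehicle replicate 3 and -0.35 in Urolithin A replicate 1. The dimmer Ttr probe divided the arrays the same way, at 2.55 to 4.66 in the choroid-rich and -6.88 to -0.58 in the choroid-poor class. A bulk array cannot tell more choroid plexus cells from more of a transcript per cell.

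The other markers named for this tissue were at high levels on the same arrays. Folr1, the folate receptor that carries folate into the cerebrospinal fluid, ran from 1.99 to 4.07 (median 2.88) in choroid-rich and from -3.81 to -0.49 (median -1.96) in choroid-poor arrays. Clic6, an intracellular chloride channel family member, ran from 2.31 to 4.08 (median 2.87) against -5.01 to -0.12 (median -0.84). Kcnj13, the inward rectifier potassium channel Kir7.1 of the apical membrane, ran from 1.93 to 3.96 (median 2.53) against -6.03 to -0.58 (median -2.22). None of the 3 overlapped between classes, which also held for 2.38% of all genes. Clic6 and Kcnj13 were well above background on all 10 choroid-rich and on 8 of 9 choroid-poor arrays.

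**Figure D1:**
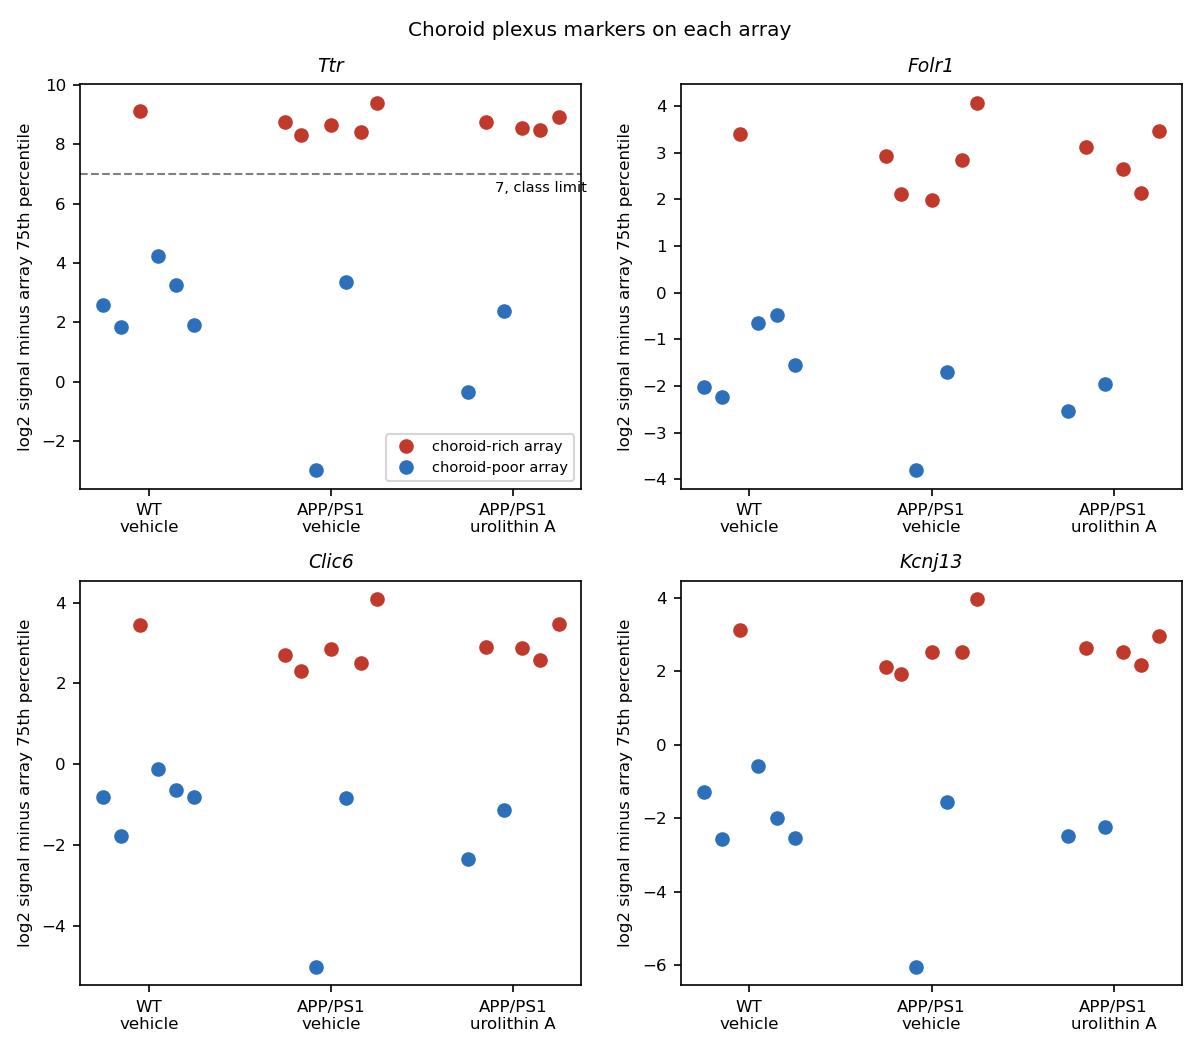
Level of Ttr, Folr1, Clic6 and Kcnj13 (log2 signal minus the array's 75th percentile, vertical axis) on each of 19 arrays, by labelled group, with choroid-rich arrays in red and choroid-poor arrays in blue; the dashed line is the class limit of 7 on Ttr. All 10 red points lie above all 9 blue points in each panel, and APP/PS1 vehicle replicate 3 is the lowest blue point in each.

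Inside each class the markers still moved with Ttr. Folr1, Clic6 and Kcnj13 were picked beforehand as markers of the same epithelium as Ttr. The labelled group was not held in these correlations, which are given as a description. Over the 9 choroid-poor arrays, Pearson's r with Ttr was 0.90 for Folr1 (exact permutation test, 2-sided p = 0.000606), 0.97 for Clic6 (p = 0.000149) and 0.92 for Kcnj13 (p = 0.000601). Spearman's rho was 0.82, 0.83 and 0.90 in the same order (exact permutation p = 0.0108, 0.00827 and 0.00203). Over the 10 choroid-rich arrays r was 0.86 for Folr1, 0.96 for Clic6 and 0.90 for Kcnj13 (permutation test with 100000 resamples, p = 0.00109, 7e-05 and 0.00048), and rho was 0.82, 0.90 and 0.79 (permutation p = 0.0056, 0.00077 and 0.00839). After adjustment over the 6 relations the p of r ran from 0.00042 to 0.00109 and that of rho from 0.00462 to 0.0108 (permutation tests). Without the 2 arrays farthest from the class median of Ttr, r was 0.74, 0.81 and 0.86 in the choroid-poor class and 0.70, 0.89 and 0.66 in the choroid-rich class. No class had more than 5 arrays on 1 slide, so no relation was computed within slides.

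No difference in Ttr between the labelled groups passed the exact test. With 6 or 7 arrays per group and wide spreads, such a test can miss a difference. Ttr stood at 3.83 ± 2.75 (SD, n = 6) in WT, 6.27 ± 4.56 (SD, n = 7) in APP/PS1 on vehicle and 6.13 ± 4.06 (SD, n = 6) in APP/PS1 on Urolithin A. APP/PS1 vehicle was 2.44 above WT (exact permutation test, 2-sided p = 0.290, adjusted over 3 comparisons 0.435). Urolithin A was 2.30 above WT (exact permutation p = 0.232, adjusted 0.435) and 0.15 below APP/PS1 vehicle, at a difference of -0.15 (exact permutation p = 0.945). All 3 groups held both high and low arrays, so each group's range crossed the limit of 7.

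Across genes, choroid-rich arrays were compared with choroid-poor arrays in a limma model that also held the labelled group. Of 25600 genes tested, 3888 (15.2%) had an adjusted p under 0.05, 1765 of them higher (6.89%) and 2123 lower (8.29%) in choroid-rich arrays. The higher side held the large differences: 30 genes rose more than 16-fold, 136 rose 4 to 16-fold, 318 rose 2 to 4-fold and 1281 rose by less. On the lower side no gene fell more than 16-fold, 10 fell 4 to 16-fold, 113 fell 2 to 4-fold and 2000 fell by less. The 2 classes did not overlap for 610 genes (2.38%), and the median difference over all genes was -0.04. Inside each labelled group the difference of means had the direction of the whole for 1764 of the 1765 higher genes and 2114 of the 2123 lower genes, on the same arrays that made the calls.

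The number of calls depended on single arrays. Without WT replicate 3, the lone choroid-rich WT array, 1680 genes were called (1007 higher, 673 lower), and without the dim APP/PS1 vehicle replicate 3 there were 2450 (1262 higher, 1188 lower). Within a single labelled group, APP/PS1 vehicle gave 7 higher and 0 lower calls at 5 against 2 arrays, and Urolithin A gave 172 higher and 5 lower at 4 against 2. Within Urolithin A, 3 of the 4 choroid-rich arrays lay on slide 3 and the 2 choroid-poor arrays on slide 2. Under normexp background correction 1189 were higher and 2551 lower, and the deposited values gave 1922 higher and 1220 lower. Of the 101 called genes picked for naming, 31 lost the call without WT replicate 3 and 25 without APP/PS1 vehicle replicate 3, while none changed sign under any alternative that was run.

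The steepest rise after Ttr was that of Kcne2, a potassium channel subunit of the choroid epithelium, with levels of 1.76 to 3.72 (median 1.96) in choroid-rich and -6.94 to -1.58 (median -3.47) in choroid-poor arrays, a fitted difference of 6.65 (SE 0.60). Slc4a5, an electrogenic sodium bicarbonate cotransporter, differed by 6.41 (SE 0.45), from -7.27 to -3.32 in choroid-poor and from -0.19 to 1.68 in choroid-rich arrays. Cldn2, the claudin that forms cation and water pores in leaky epithelia, differed by 5.97 (SE 0.35), and Wfdc2, a secreted WAP domain protein, by 6.00 (SE 0.49). These 4 genes had no choroid-rich array inside the choroid-poor range. Slc4a5 was well above background on only 2 of 9 choroid-poor arrays and Cldn2 on 1, so their lower levels are near the background of the array.

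Genes that no choroid list held were also among the largest rises. Tex22, named for testis expression, differed by 6.26 (SE 0.44), and Defb11, a beta-defensin, by 4.82 (SE 0.59). Tex22 was well above background on 1 of 9 choroid-poor arrays and Defb11 on 2, so the size of these differences rests on levels near background. Tmprss11a, of a family of membrane serine proteases, was well above background on 10 choroid-rich arrays and on 0 choroid-poor arrays and was at least 7.73-fold higher in the choroid-rich class. The noncoding transcript Frmpd1os, dim on all choroid-poor arrays as well, was at least 9.29-fold higher. A fold given as a lower bound compares the bright class with the dimmest signal that still counted as above background on an array. Of the 30 genes that rose more than 16-fold, 15 were members of a choroid list and 0 of the motile cilia list.

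Choroid plexus genes were sorted by role into 7 lists of known markers, which were chosen with earlier results of these data in view. Outside Ttr, 90 genes of these lists were tested, and Mfrp (no probe matched) and Epcam (below the signal filter) were not. Of the 90, 69 were higher and 1 was lower in choroid-rich arrays, against 6.89% and 8.29% of all genes, with a median difference of 1.49 against -0.04. For 58 of them the classes did not overlap, against 2.38% of all genes. Rises of more than 2-fold numbered 54 (484 among all 25600 genes) and rises of more than 16-fold 15 (30 among all). The mean level of the 90 ran from 0.23 to 1.30 over choroid-rich and from -1.94 to -0.87 over choroid-poor arrays. Tmem72, Slco1a5, Slc28a3 and Cdh3 were not well above background on any choroid-poor array, and their bounds, at least 14.8-fold, 6.70-fold, 6.35-fold and 3.34-fold, also lie above the median. Since Ttr is a marker of the same epithelium, these counts follow from how the arrays were divided and are given as a description.

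Among secreted and carrier proteins, 12 of 14 tested were higher and 0 lower, with a median of 2.05. F5, coagulation factor V, differed by 5.35 (SE 0.48) and Ecrg4, which encodes the secreted peptide augurin, by 5.19 (SE 0.42). Enpp2, the lysophospholipase autotaxin, was bright in both classes, at 7.17 to 8.76 (median 7.54) in choroid-rich and 2.86 to 4.43 (median 3.93) in choroid-poor arrays. Sostdc1, an antagonist of BMP and Wnt signals, ran from 1.26 to 2.70 against -2.71 to -1.36, a difference of 4.12 (SE 0.20). Lbp, the lipopolysaccharide binding protein, differed by 3.24 (SE 0.22). The 2 members that were not called were Cst3 at 0.08 and Cp at 0.35, both made by other brain cells as well.

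Of 8 receptors and uptake proteins, 4 were higher and 0 lower. Besides Folr1 these were Prlr, the prolactin receptor, with a difference of 3.48 (SE 0.25), Kl, which encodes klotho, with 3.1 (SE 0.23), and Dab2, an adaptor for endocytosis, with 0.97 (SE 0.18). Prlr ran from 0.57 to 2.33 in choroid-rich and from -3.13 to -1.42 in choroid-poor arrays, and Kl from 1.48 to 3.16 against -1.72 to -0.28. The 4 members that were not called were Lrp2 at 0.68, Htr2c at 0.41, Stra6 at -0.02 and Lepr at -0.45. Htr2c, the serotonin 2C receptor, is known from neurons too.

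Among 16 genes for ion and water transport, 11 were higher and 1 lower, with a median of 1.58. Aqp1, the water channel of the apical membrane, ran from 0.70 to 2.64 (median 1.63) in choroid-rich and from -1.63 to -1.04 (median -1.35) in choroid-poor arrays. Trpv4, a calcium-permeable channel, differed by 3.59 (SE 0.25), Trpm3 by 3.98 and Slc4a2, an anion exchanger, by 1.28 (SE 0.08). Atp1b1, a sodium pump subunit also abundant in neurons, fell by 0.26. Slc12a2, the sodium potassium chloride cotransporter, rose by 1.10.

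Solute carriers and efflux pumps gave 11 higher and 0 lower of 16, with a median of 1.27. Slc16a8, a lactate transporter, differed by 3.59 (SE 0.29) and Slc31a1, the copper transporter CTR1, by 1.43 (SE 0.14). Slco1c1, which carries thyroxine, ran from 1.01 to 2.24 in choroid-rich and from -0.09 to 0.40 in choroid-poor arrays. Junction and cytoskeleton genes gave 13 higher and 0 lower of 14, with Cldn3 at 3.84 (SE 0.35), the junction adaptor Cgnl1 at 2.01 (SE 0.17) and Spint2 at -0.03 as the member not called. Of the 4 claudins of that list, Cldn2 had the largest difference at 5.97, and Cldn1 and Cldn9 the smallest at 1.10 each. In choroid-poor arrays Slc16a8 ran from -6.10 to -4.10 and Cldn3 from -7.17 to -4.68, as low as Slc4a5 and Cldn2. The sizes of the Slc16a8 and Cldn3 differences may thus rest on levels near background.

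Transcription factors gave 6 higher and 0 lower of 10, with a median of 0.70. Otx2, a homeodomain factor needed for the choroid plexus, ran from 1.15 to 2.86 (median 1.81) in choroid-rich and from -6.91 to -0.78 (median -1.89) in choroid-poor arrays, a difference of 5.01 (SE 0.60). Lmx1a, a roof plate factor, differed by 4.24 (SE 0.43) and Msx1 by 1.84 (SE 0.18). In choroid-poor arrays Lmx1a ran from -8.16 to -5.02, as low as Cldn2, so the size of its difference may rest on levels near background. Rfx2 and Rfx3, factors of ciliated cells, rose by 0.65 and 0.40. All 12 of the other choroid markers were higher, with a median of 2.93, among them Steap1 at 4.26 (SE 0.24), the collagen gene Col8a1 at 3.75 (SE 0.24) and Rdh5, a retinol dehydrogenase, at 3.14 (SE 0.21).

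**Figure D2:**
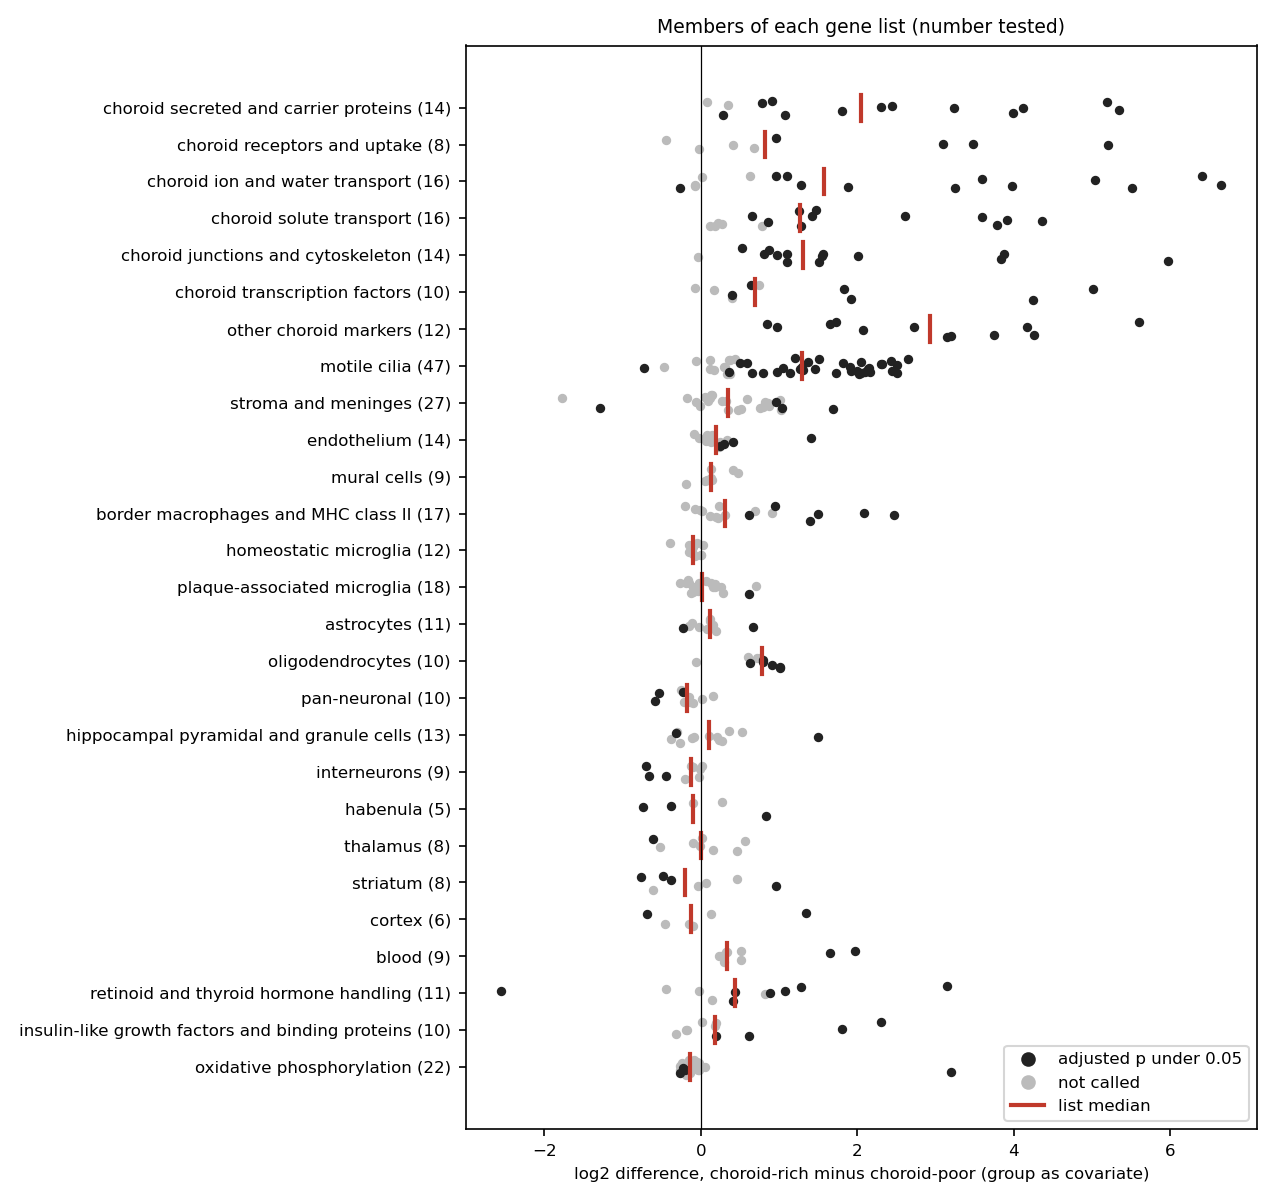
Fitted log2 difference of choroid-rich minus choroid-poor arrays (horizontal axis) for each tested member of 27 gene lists, with the number tested in parentheses, called genes (limma adjusted p under 0.05) in black, other genes in grey and the list median as a red bar. The choroid lists reach 6.65 and the motile cilia list 2.65, while the medians of the neuronal and microglial lists lie between -0.18 and 0.11.

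Genes of motile cilia, the beating cilia of ependymal cells whose parts the choroid epithelium also expresses, rose with a smaller and more even step. Of 53 listed, 47 were tested, and 34 were higher and 1 was lower (6.89% and 8.29% of all genes), with a median of 1.29. The list mean ran from -1.91 to -1.04 over choroid-rich and from -3.47 to -2.04 over choroid-poor arrays, without overlap. Foxj1, the factor that drives motile cilia genes, ran from -1.17 to 0.06 (median -0.50) in choroid-rich and from -3.74 to -1.44 (median -1.99) in choroid-poor arrays, and it differed by 1.93 (SE 0.26, limma adjusted p = 9.79e-05). Pifo, a regulator of cilium disassembly, differed by 2.50 (SE 0.27, adjusted p = 1.15e-05 in limma), and Spag16, a part of the axoneme's central pair, by 2.65. Drc7, of the dynein regulatory complex, ran from -2.14 to -1.0 against -3.69 to -2.90, a difference of 1.72 (SE 0.15). Cfap126 differed by 2.05 (SE 0.22). The member that fell was Dnah7a, an axonemal dynein heavy chain, at -0.73. The rise was called for 31 members without APP/PS1 vehicle replicate 3 and for 29 without WT replicate 3, for 5 within the Urolithin A group alone and for 0 within the APP/PS1 vehicle group, where 44 of 47 still had a positive difference.

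Promoters of the rising genes were examined for 2 short motifs, since the members moved together: TAATCC, the core that OTX-type homeodomain factors bind, and GTTGCC, the X-box half-site that RFX factors bind, each on both strands. The motifs were settled after some other spellings of the X-box had been tried. The sequences are the 250 bases before the RefSeq start of each gene (GRCm38.p6), read 5′ to 3′ on the gene's strand, with GTTGCC or its reverse complement GGCAAC in capitals. Kcnj13 and Kcne2 are shown for the choroid epithelium, and Pifo and 1110017D15Rik for motile cilia, where the motif lies next to the start.
Kcnj13 (chr1:87394730-87394979, minus strand): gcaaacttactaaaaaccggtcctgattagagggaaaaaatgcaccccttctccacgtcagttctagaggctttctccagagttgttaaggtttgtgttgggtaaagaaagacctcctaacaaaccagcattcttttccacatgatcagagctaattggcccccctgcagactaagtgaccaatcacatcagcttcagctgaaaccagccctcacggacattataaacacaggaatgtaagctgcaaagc
Kcne2 (chr16:92292139-92292388, plus strand): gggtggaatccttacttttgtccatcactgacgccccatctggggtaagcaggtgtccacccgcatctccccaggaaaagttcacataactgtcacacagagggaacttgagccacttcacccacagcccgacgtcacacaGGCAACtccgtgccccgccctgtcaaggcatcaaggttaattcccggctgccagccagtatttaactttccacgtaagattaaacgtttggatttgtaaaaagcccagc
Pifo (chr3:106001498-106001747, minus strand): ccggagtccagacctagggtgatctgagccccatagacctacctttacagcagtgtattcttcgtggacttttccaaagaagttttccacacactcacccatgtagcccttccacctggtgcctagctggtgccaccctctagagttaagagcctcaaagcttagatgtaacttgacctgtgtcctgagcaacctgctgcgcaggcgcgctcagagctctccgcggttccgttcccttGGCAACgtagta
1110017D15Rik (chr4:41507765-41508014, minus strand): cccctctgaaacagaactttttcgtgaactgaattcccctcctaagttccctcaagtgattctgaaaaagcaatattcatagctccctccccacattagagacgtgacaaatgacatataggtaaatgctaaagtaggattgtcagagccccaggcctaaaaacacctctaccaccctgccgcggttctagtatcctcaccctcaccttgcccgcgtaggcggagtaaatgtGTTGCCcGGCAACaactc
GTTGCC was found in 39.6% of 48 promoters of the cilia list, in 15% of 107 promoters of the choroid lists and in 10.4% of all 32851 promoters of this length. Within the cilia list it was in 40.0% of promoters of genes called higher and in 38.5% of the others, so its presence did not separate the members that rose. TAATCC was found in 12.5% of promoters of the cilia list, in 3.74% of those of the choroid lists and in 6.25% of all. Within the cilia list it was in 17.1% of 35 promoters of genes called higher and in 0 of the 13 others, a small number that was given no test. A match in letters is not a bound site, and several promoters can belong to 1 gene. 1110017D15Rik, whose promoter holds the motif on both strands in direct succession, ran from 0.86 to 1.75 (median 1.44) in choroid-rich and from -0.22 to 0.54 (median 0.18) in choroid-poor arrays. That is a difference of 1.27 (SE 0.14, limma adjusted p = 1.68e-05).

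Macrophage and antigen presentation genes of the brain's borders rose in part. Of 17 tested, 6 were higher and 0 lower, against 6.89% and 8.29% of all genes, with a median of 0.31. Folr2, a folate receptor of resident macrophages, ran from -3.36 to -1.50 in choroid-rich and from -5.96 to -4.22 in choroid-poor arrays, a difference of 2.47 (SE 0.30, limma adjusted p = 3.07e-05). H2-Aa and H2-Eb1, which encode chains of MHC class II, differed by 2.08 (SE 0.58, limma adjusted p = 0.0234) and 1.5 (SE 0.34, adjusted p = 0.00783 in limma). Without APP/PS1 vehicle replicate 3, or without WT replicate 3, 3 of the 17 were called. Homeostatic microglia gave 0 higher and 0 lower of 12 in limma (median -0.10), and 0 at an unadjusted p under 0.05. Plaque-associated microglia gave 1 higher and 0 lower of 18 (median 0.02), the tetraspanin gene Cd9 at 0.62 (SE 0.12, limma adjusted p = 0.00293).

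Stromal and vascular genes gave calls in some lists, beside 6.89% higher and 8.29% lower over all genes. Of 27 genes of stroma and meninges, 3 were higher and 1 lower, a share near that of all genes (6.89% higher and 8.29% lower), with a median of 0.35. Inside the WT group 11 of the 27 had a positive difference, and within slide 1 the median was -0.06. Bmp6, a bone morphogenetic protein, differed by 1.69 (SE 0.24, limma adjusted p = 0.000212) and did not overlap between classes, and Islr differed by 0.96 (SE 0.17). Serping1, the C1 inhibitor, differed by 1.04 (SE 0.27), with 5 choroid-rich arrays inside the choroid-poor range. Of 14 endothelial genes 4 were higher and 0 lower (median 0.19), among them Esm1, which encodes endocan, at 1.41 (SE 0.35, limma adjusted p = 0.0126). In limma 0 of the 14 were called without APP/PS1 vehicle replicate 3, 1 without WT replicate 3, 2 with slide as a block and 0 with Dcn in the model. Slc2a1, the glucose transporter of the blood-brain barrier, differed by 0.30 (SE 0.09). Of 9 mural cell genes none was called in limma (median 0.13), and 1 had an unadjusted p under 0.05, Tagln at 0.47 (limma adjusted p = 0.122). Without APP/PS1 vehicle replicate 3, 1 mural gene was called lower. Blood genes gave 2 higher and 0 lower of 9, S100a8 at 1.97 (SE 0.45) and S100a9 at 1.65 (SE 0.42), the subunits of calprotectin in neutrophils. Of the blood genes 1 was called with either APP/PS1 vehicle replicate 3 or WT replicate 3 left out, and 0 with slide or the replicate number as a block in limma. Inside WT 3 of the 9 had a positive difference, and within slide 1 the median was -0.51.

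Genes of hormone and growth factor handling were tested as 2 further lists, beside 6.89% higher and 8.29% lower over all genes. Of 11 retinoid and thyroid hormone genes, 6 were higher and 1 lower, including Rdh10, a retinol dehydrogenase, at 0.42 (SE 0.09). Of 10 genes for insulin-like growth factors and their binding proteins, 4 were higher and 0 lower. Igf2 ran from 0.45 to 1.89 (median 1.06) in choroid-rich and from -2.25 to -0.12 (median -1.01) in choroid-poor arrays, and Igfbp2 from 1.29 to 2.98 against 0.04 to 0.82. Igfbp7 differed by 0.62 (SE 0.12). Several genes of these lists also stand in the choroid lists. In oxidative phosphorylation, Cox8b, an isoform of a cytochrome oxidase subunit, rose by 3.20 (SE 0.24), while 3 other members were lower, Ndufa10 at -0.26, Ndufv1 at -0.22 and Cox5a at -0.20. Over the 22 genes of this list 1 was higher and 3 lower, beside 6.89% and 8.29% of all genes, with a median of -0.14. With either APP/PS1 vehicle replicate 3 or WT replicate 3 left out, 1 member was called lower.

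Some neuronal genes were slightly lower on choroid-rich arrays. Of 10 pan-neuronal genes, 0 were higher and 3 lower, against 6.89% and 8.29% of all genes, with a median of -0.18. Stmn2, a microtubule regulator of neurons, ran from 5.50 to 6.13 (median 5.83) in choroid-rich and from 6.19 to 6.54 (median 6.38) in choroid-poor arrays, a difference of -0.58 (SE 0.09, limma adjusted p = 0.000373). Tubb3, neuronal beta-tubulin, differed by -0.53 (SE 0.12, limma adjusted p = 0.00644). Neither gene overlapped between classes, which held for 2.38% of all genes. Of 9 interneuron genes 0 were higher and 3 lower, with Reln at -0.69 (SE 0.15), Vip at -0.67 (SE 0.20) and Sst at -0.44 (SE 0.14). These 3 did overlap between classes, and without APP/PS1 vehicle replicate 3 or WT replicate 3 1 interneuron gene was called. Of 13 genes of hippocampal pyramidal and granule cells 1 was higher, Dsp (desmoplakin) at 1.49 (SE 0.38), and 1 lower, Calb1 (calbindin) at -0.31 (SE 0.10), with a median of 0.11. Calb1 was not called with either APP/PS1 vehicle replicate 3 or WT replicate 3 left out. In the deposited value table and under normexp, quantile and detected-probe scaling, the 2 to 4 pan-neuronal genes called were all lower.

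Markers of regions next to the hippocampus, in short lists, gave calls in both directions, beside 6.89% higher and 8.29% lower over all genes. The habenula list gave 1 higher and 2 lower of 5, with Chrnb4 at 0.84 (SE 0.14), Nwd2 at -0.38 (SE 0.09) and Tac2 at -0.74 (SE 0.21). Of 8 thalamus genes 1 was lower, Ntng1 at -0.62 (SE 0.11). Of 8 striatum genes 1 was higher and 3 lower. Ppp1r1b, which encodes the signalling inhibitor DARPP-32, was the higher one, at 2.48 to 3.27 in choroid-rich and 1.64 to 2.17 in choroid-poor arrays (difference 0.96, SE 0.11, limma adjusted p = 1.97e-05). Tac1 at -0.77 (SE 0.21), Drd1 at -0.49 (SE 0.16) and Rgs9 at -0.37 (SE 0.09) were lower. Of 6 cortex genes Rspo1 was higher at 1.34 (SE 0.41) and Fezf2 lower at -0.68 (SE 0.17). Without APP/PS1 vehicle replicate 3 the lower calls fell to 1 of 8 in striatum and 1 of 5 in habenula, and without WT replicate 3 to 0 in both. Of the cortex genes 1 was called, lower, without the former array and 0 without the latter. No region list had all its members on 1 side.

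Of 10 oligodendrocyte genes tested, 6 were higher and 0 lower, against 6.89% and 8.29% of all genes, with a median of 0.78. Mbp, myelin basic protein, ran from 3.12 to 4.99 (median 4.41) in choroid-rich and from 2.84 to 3.49 (median 3.34) in choroid-poor arrays, a difference of 1.01 (SE 0.22, limma adjusted p = 0.00579). Mobp differed by 1.01 (SE 0.25) and Cldn11, the claudin of myelin, by 0.80 (SE 0.22). For Mobp and Cldn11, 7 choroid-rich arrays lay above the choroid-poor range and 3 lay inside it. Without APP/PS1 vehicle replicate 3 or without WT replicate 3, 1 of the 10 was called, and 8 were called with slide as a block. Of 11 astrocyte genes 1 was higher, Vim at 0.67 (SE 0.15), and 1 lower, Aldoc at -0.23 (SE 0.07), with a median of 0.11, and 0 astrocyte genes were called lower with either APP/PS1 vehicle replicate 3 or WT replicate 3 left out.

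**Figure D3:**
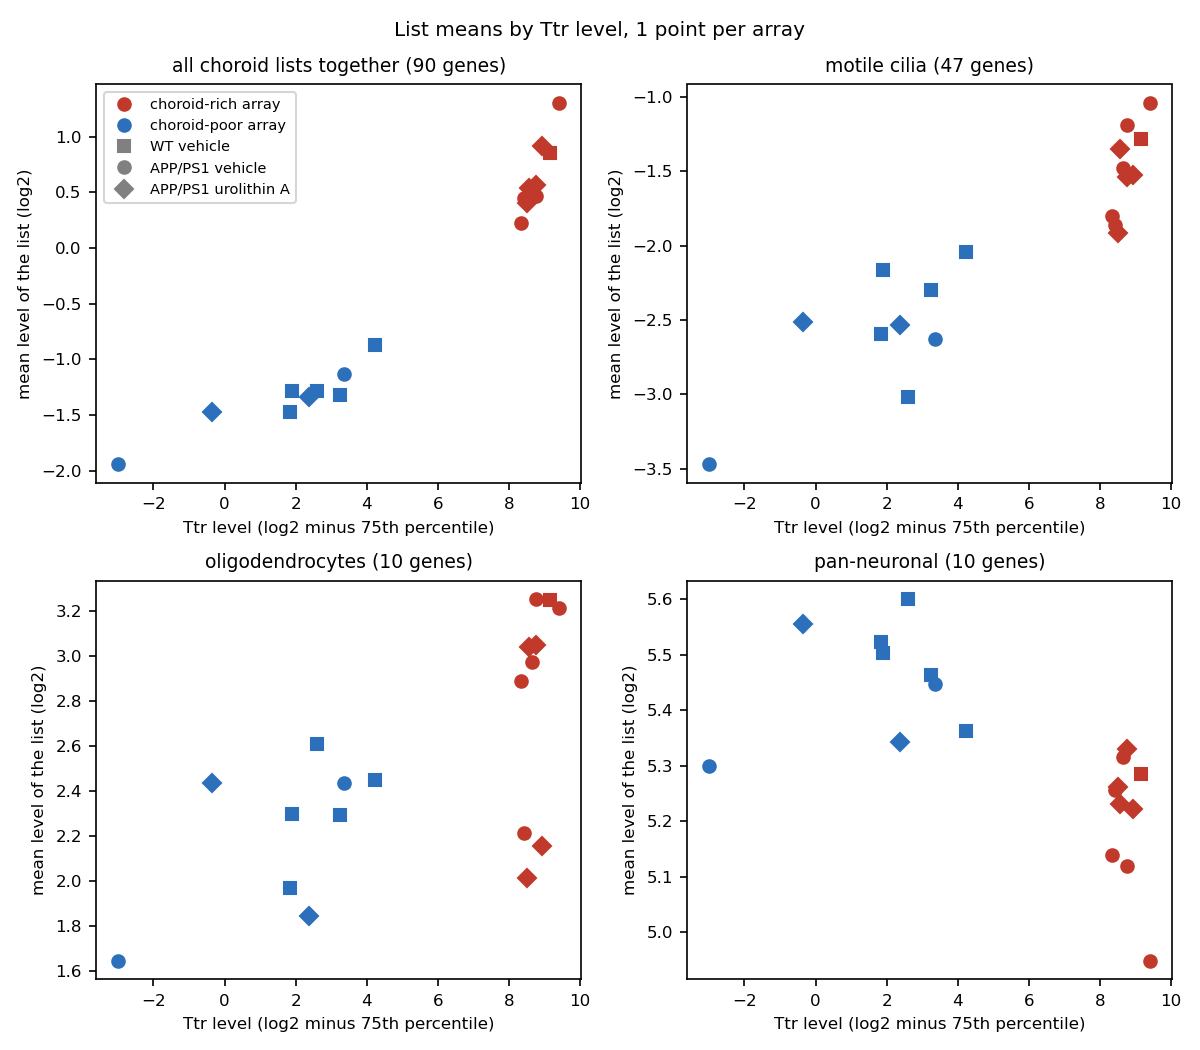
Mean level of all choroid list genes, motile cilia genes, oligodendrocyte genes and pan-neuronal genes (log2, vertical axes) against the Ttr level of the same array (horizontal axes), 1 point per array, coloured by class and shaped by labelled group. The choroid and cilia means do not overlap between classes, while 3 choroid-rich arrays lie among the choroid-poor ones in the oligodendrocyte panel.

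Several of the largest falls also divided the choroid-rich arrays, though not always into the same arrays. Tacr3, the neurokinin B receptor, ran from -7.17 to -1.83 (median -4.0) in choroid-rich and from -2.57 to -1.64 (median -2.12) in choroid-poor arrays, a difference of -2.37 (SE 0.58, limma adjusted p = 0.0124). Of the choroid-rich arrays 7 lay below the choroid-poor range and 3 inside it. These 3 were APP/PS1 vehicle replicate 6 and Urolithin A replicates 5 and 6, as for Mobp and Cldn11. Dio3, the deiodinase that inactivates thyroid hormone, ran from -5.53 to -0.51 (median -4.73) against -3.42 to -0.62 (median -1.13), a difference of -2.55 (SE 0.83, limma adjusted p = 0.0468). For Dio3, 6 choroid-rich arrays lay below the choroid-poor range, 3 inside it and 1 above it. APP/PS1 vehicle replicate 7, at -2.56, lay inside only through WT replicate 1 at -3.42. Dcn, which encodes the matrix proteoglycan decorin, also divided the choroid-rich arrays and was chosen after its values were seen. It ran from 1.77 to 5.72 in choroid-rich and from 3.92 to 5.82 in choroid-poor arrays, and its difference of -1.77 (SE 0.61, limma adjusted p = 0.0577) was not called. APP/PS1 vehicle replicates 6 and 7 and Urolithin A replicates 5 and 6 lay inside the choroid-poor range of Dcn, and the other 6 choroid-rich arrays lay below it. APP/PS1 vehicle replicate 7, at 4.23, lay inside only through WT replicate 1 at 3.92. The next lowest choroid-poor array, WT replicate 5, stood at 4.51.

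**Figure D4:**
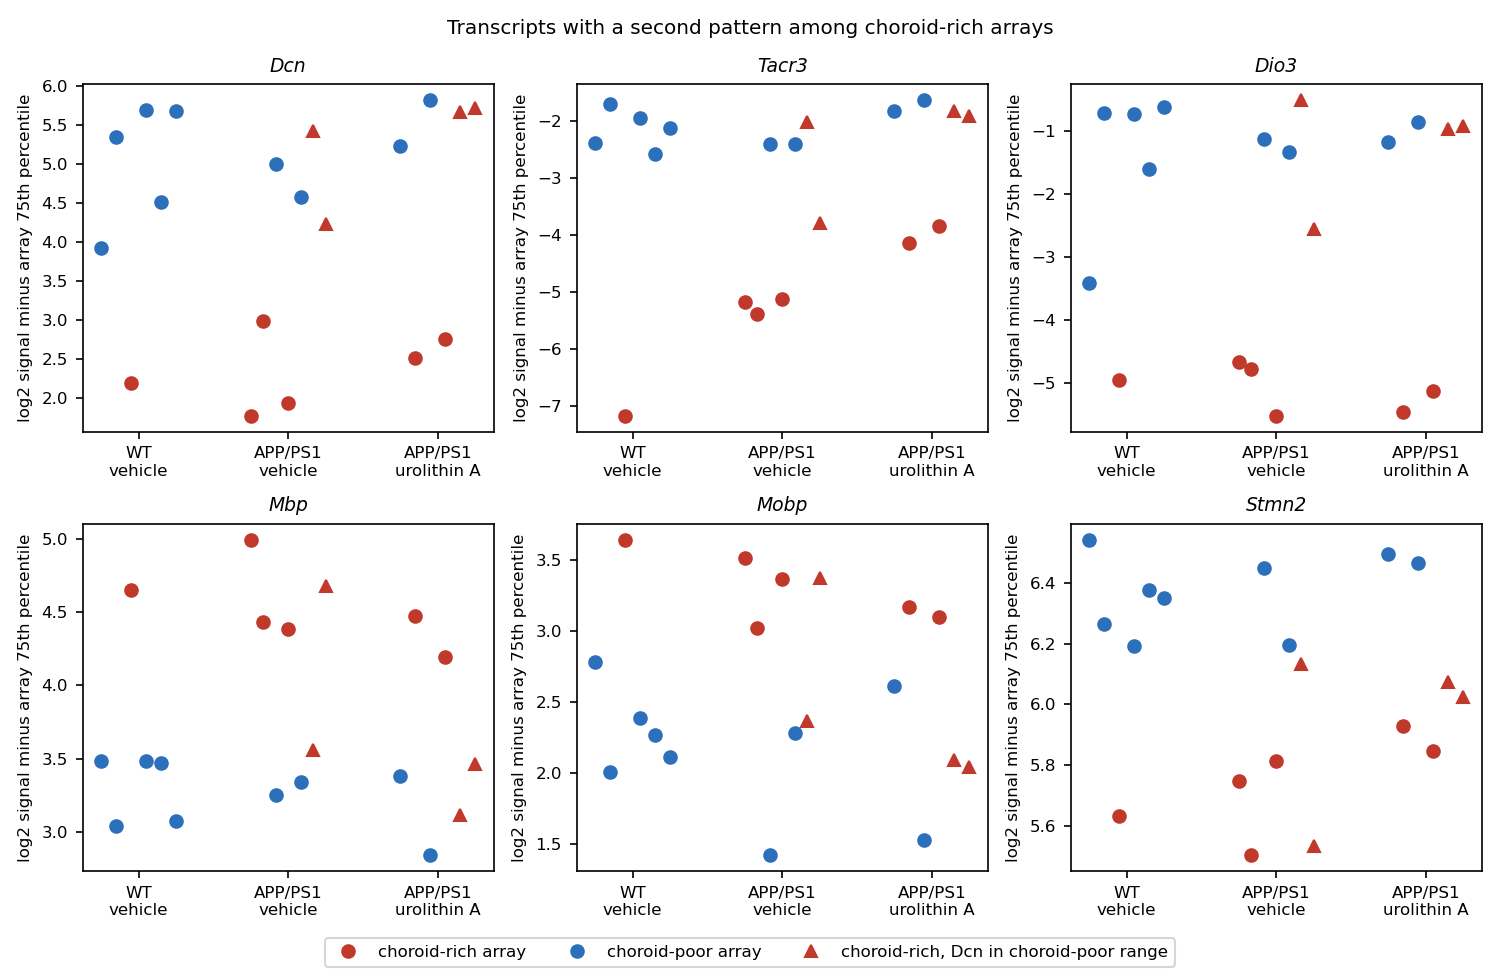
Level of Dcn, Tacr3, Dio3, Mbp, Mobp and Stmn2 (log2 signal minus the array's 75th percentile) on each array by labelled group, with choroid-rich arrays in red, choroid-poor arrays in blue and triangles for the 4 choroid-rich arrays whose Dcn level lay in the choroid-poor range. For Tacr3, 3 of the triangles lie among the blue points and the other 7 choroid-rich arrays below them, while for Stmn2 all 10 choroid-rich arrays lie below the blue points.

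With the Dcn level added to the model, a setting chosen after seeing the data, 862 genes were higher and 394 lower in choroid-rich arrays. Of these, 785 and 320 were among the main calls, that is 44.5% of the genes first called higher and 15.1% of those first called lower. The choroid lists gave 66 higher and 0 lower of 90 in that model, the motile cilia list 27 higher of 47 and the oligodendrocyte list 0 of 10. Without the 4 arrays that lay in the choroid-poor range of Dcn, 2223 genes were higher and 2566 lower, with 68 of 90 choroid genes, 33 of 47 cilia genes and 9 of 10 oligodendrocyte genes higher. Of the stroma and meninges list, which holds Dcn itself, 7 of 27 were higher and 0 lower with Dcn in the model. What set the 4 arrays apart was not tested.

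Some of the remaining large falls were of dim transcripts. Sec14l3, a Sec14-like lipid binding protein, ran from -6.12 to -0.67 in choroid-rich and from -2.02 to -0.14 in choroid-poor arrays, a difference of -2.88 (SE 0.62, limma adjusted p = 0.00549). Alox12e, an epidermal lipoxygenase, differed by -2.73 (SE 0.63) and was well above background on 3 choroid-rich and 7 choroid-poor arrays. Gsdma2 at -2.40 (SE 0.73), Acp7 at -2.28 (SE 0.59) and Dhrs2 at -1.90 (SE 0.34) were well above background on at most 3 choroid-rich arrays. Gsta2, a glutathione transferase, differed by -2.01 (SE 0.58) and Tnni3k, a kinase, by -1.89 (SE 0.60). Shisal2b differed by -1.94 (SE 0.34, limma adjusted p = 0.00119) and is the member of these 10 falls whose classes did not overlap, at -5.18 to -2.17 against -2.15 to -1.30. Ccn3, a matricellular protein of the stroma list, was bright, at 2.25 to 4.48 against 3.82 to 4.69, and differed by -1.29 (SE 0.29).

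The choroid-rich difference was set against treatment within APP/PS1 mice, with 5 and 2 arrays on vehicle and 4 and 2 on Urolithin A. Slide 3 held 3 of those 4 Urolithin A arrays and no other group, so treatment, class and slide cannot be fully told apart here. No gene had a class-by-treatment term past the limma threshold, and 1290 had an unadjusted p under 0.05. Within APP/PS1 vehicle the Folr1 difference was 5.54, within Urolithin A 5.10, and in WT, where replicate 3 stood against the other 5, 4.78. The 90 choroid genes were positive in 84, 84 and 84 cases in WT, APP/PS1 vehicle and Urolithin A, and 80 were positive in all 3. Of 47 cilia genes 43 were positive in all 3, as were 9 of 10 oligodendrocyte genes.

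Because choroid-rich arrays were more frequent among APP/PS1 mice, the genotype comparison was fitted with and without the class. Without the class, APP/PS1 vehicle differed from WT in 1288 genes (5.03%), 731 higher (2.86%) and 557 lower (2.18%). With the class it differed in 599 (2.34%), 500 higher (1.95%) and 99 lower (0.387%). The genes called in both fits numbered 459, which is 35.6% of the first set and 76.6% of the second. Of the 90 choroid genes none was called between genotypes without the class, yet 80 had a positive difference, with a median of 0.70. With the class 25 had a positive difference, the median was -0.19 and 1 gene was called. The median of the 47 cilia genes moved likewise from 0.30 to -0.32.

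The calls among microglial genes were nearly as many with the class as without it. Of 18 plaque-associated genes, 11 were higher without and 10 with the class, and of 12 homeostatic genes 6 in either fit. Trem2, a lipid-sensing receptor of microglia, differed by 1.65 (SE 0.13) without and 1.75 (SE 0.14) with the class. Cst7, which encodes cystatin F, differed by 6.19 (SE 0.25) and 6.28 (SE 0.28). Urolithin A against APP/PS1 vehicle gave 0 genes in limma in either fit (3960 at an unadjusted p under 0.05 without and 4648 with the class), and under normexp background correction it gave 2828 with the class. Urolithin A against WT gave 23 genes without the class (0.0898%) and 22 with it (0.0859%), all higher, 17 of them shared. All WT arrays lay on slide 1, with slide as a block the class-adjusted genotype count was 23, and only 2 APP/PS1 vehicle arrays shared that slide. The Urolithin A arrays lay on slides 2 and 3, and slide 3 held that group alone.

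**Figure D5:**
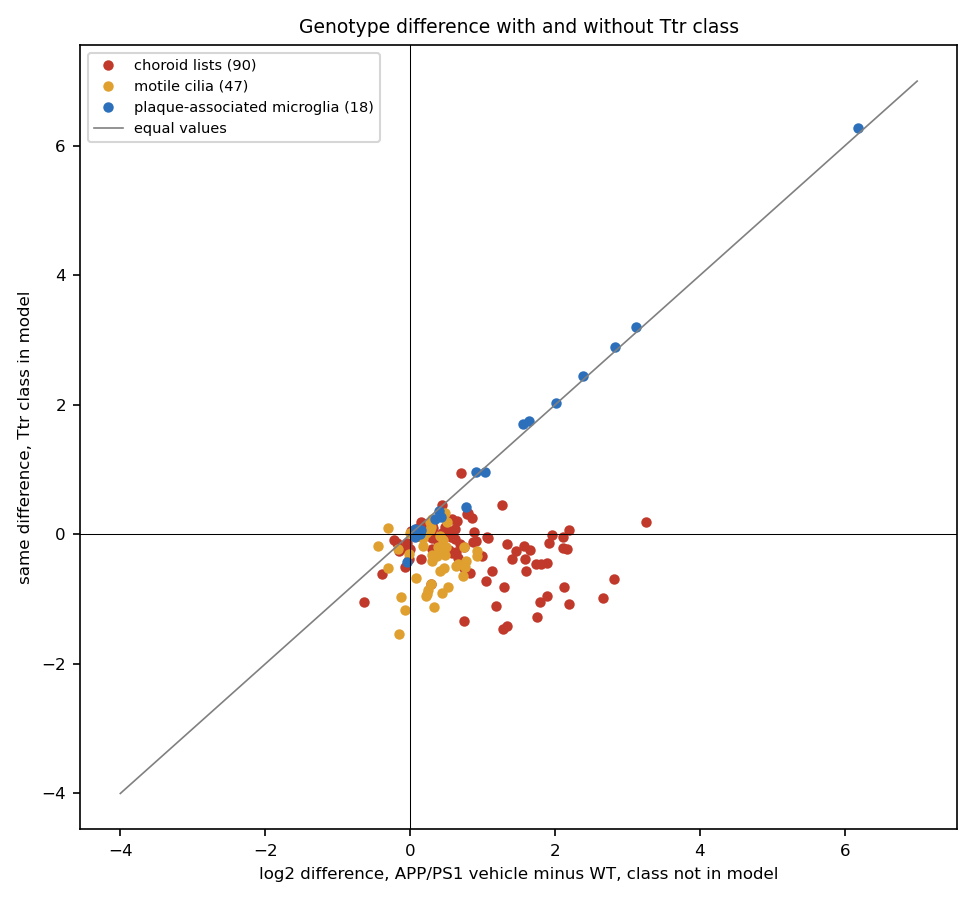
Difference of APP/PS1 vehicle minus WT (log2) fitted without the Ttr class (horizontal axis) and with it (vertical axis) for the 90 choroid genes, 47 motile cilia genes and 18 plaque-associated microglia genes, with a grey line where both are equal. Most microglia points lie near the line, with Cst7 at 6.19 and 6.28, while the choroid median falls from 0.70 to -0.19.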

How the data were processed

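Hippocampal RNA of 19 mice was labelled with Cy3 and hybridised to Agilent arrays. Deposited intensity values came from Agilent Feature Extraction 12.0.3.1, background-subtracted and dye-normalized by a protocol for 2-colour arrays, per the file headers. The deposited value table holds a score that matched log10 of that intensity, centred and scaled per array, to within 0.00500, and served as an alternative. Non-control spots of a probe were averaged and log2 of the deposited processed signal minus the array's 75th percentile was taken. Of 56605 probes, 33450 were well above background on at least 6 arrays. RefSeq accessions (GRCm38.p6) named 32989 probes, and the brightest probe stood for a gene, which gave 25601 genes, 16099 with a symbol.

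Arrays were classed at a Ttr level of 7. The model (limma 3.58.1, R 4.3.3, lmFit and eBayes) held class and labelled group, and p-values were adjusted by Benjamini-Hochberg over all genes but Ttr, with a limit of 0.05. In simulated data for this comparison, on 25489 genes, the test recovered 60% of the genes altered 1.5-fold and 88% of the genes altered 2-fold, and 6.01% of calls were false. Noise was drawn independently for each gene and only 50 genes were altered per fold size. The false share among the calls of the real data was not measured. The comparison, members and 27 lists were chosen with earlier results of these data known. Genes named are Ttr, Folr1, Clic6 and Kcnj13, the 15 largest rises and 10 largest falls with plain symbols (Xist, Tsix and Y-linked genes aside), and up to 4 called members per list by p, or 2 where none was called. Some genes that this rule named are left out of the text. Other names fill out a list's count or are said to be chosen later. Array number limits the precision. For normexp, gMedianSignal was used with gBGMedianSignal. Alternatives covered slide, normalization, background, signal filter, Ttr limit, replicate block, Xist level and single arrays.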

Additional observations from a re-analysis of the deposited data

Results flagged for a closer look

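Among the named genes, 107 were examined for an array far from the rest of its class, which makes 214 sets, and 19 were marked. Chance marks about 1 in 20 such sets. The measure is the gap of the extreme array to its nearest neighbour as a share of the range of its class. The dim APP/PS1 vehicle replicate 3 was the extreme array for 9 genes, each time as the lowest of the 9 choroid-poor arrays. Its gap was 0.545 of the range for Clic6, 0.638 for Kcnj13, 0.504 for Wfdc2, 0.592 for Otx2, 0.513 for Enpp2, 0.609 for Prlr, 0.661 for Foxj1, 0.578 for Syt1 and 0.527 for Cox8b.

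APP/PS1 vehicle replicate 7, which had the highest Ttr level of all arrays, was the extreme of the 10 choroid-rich arrays for 5 genes. It was the highest for Kcne2 (gap 0.610 of the range), Slco1c1 (0.543) and Igfbp7 (0.480). It was the lowest for Tubb3 (0.732) and Sst (0.536). Among choroid-poor arrays, WT replicate 1 was the lowest for Dio3 (0.650) and Acp7 (0.498) and the highest for Tac2 (0.709). WT replicate 4 was the highest for Slco1a5 (0.516) and WT replicate 5 for Defb11 (0.566). Slco1a5 was not well above background on any choroid-poor array, and Defb11 on few, so these gaps involve levels near background.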

How the results depend on the processing

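Of 101 called genes picked for naming, 31 lost the call without WT replicate 3, 25 without APP/PS1 vehicle replicate 3, 39 with Dcn in the model, 97 within APP/PS1 vehicle, 57 within Urolithin A, 61 within slide 1 and 62 within slide 2, and none changed direction. Ttr limits of 6 and 8 gave the same classes. Calls in all, higher and lower (main 3888, 1765 and 2123) were 231, 132 and 99 within slide 1, 146, 141 and 5 within slide 2, 7, 7 and 0 within APP/PS1 vehicle, and 177, 172 and 5 within Urolithin A. With Dcn in the model, chosen after seeing the data, they were 1256, 862 and 394. Without the filter on dim probes 2217 genes were called (994 lower), and 1220 were lower in the deposited table. Without 1 array the calls ran from 1680 to 4534 (higher 1007 to 2010, lower 673 to 2524), the lowest without WT replicate 3. Deviations of same-numbered arrays from group means correlated at -0.55 to 0.39 (median 0.013), with 8 of 18 pairs over 0.1. From group and class means they correlated at -0.30 to 0.38 (median 0.059), with 7 of 18 over 0.1. Arrays of different numbers were not compared, so whether the replicate numbers pair the arrays was not tested. The replicate block gave 2464 calls (1277 higher, 1187 lower).

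For genotype with the class (main 599), slide as a block gave 23, Ttr as a number 1393, normexp 1282, the deposited values 174, no filter 230, the Xist level 1020, the replicate block 195 and the model without class 1288. Leaving out 1 array gave 231 to 1123, lowest without APP/PS1 vehicle replicate 3 and highest without replicate 5. Urolithin A against vehicle (main 0) gave 2828 under normexp and 0 to 53 without 1 array, the highest without APP/PS1 vehicle replicate 4. Urolithin A against WT (main 22) gave 3 with slide as a block, 14 under normexp, 9 under the replicate block and 14 to 31 without 1 array. The Ttr difference of Urolithin A from vehicle (-0.15) was 0.37 under the replicate block and -1.69 to 1.15 without 1 array. That of vehicle from WT ran from 1.92 to 3.99 and that of Urolithin A from WT from 1.74 to 3.59. Fcrls, not called at -0.15, was 0.011 within slide 1 and 0.14 without the group in the model. The cause of these shifts was not tested. Class by genotype was not run, since WT held 1 choroid-rich array, nor were slide 3 and WT alone.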

Other observations

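Genes outside every list that rose more than 16-fold in choroid-rich arrays, chosen after their values were seen, included an antisense neighbour of Otx2. Otx2os1, named for its place opposite Otx2, differed by 4.61 (SE 0.38) and lay at -2.64 to -1.13 in choroid-rich and -7.75 to -5.09 in choroid-poor arrays. Bhmt, an enzyme that remethylates homocysteine with betaine, differed by 4.66 (SE 0.51), Smim22 by 4.66 (SE 0.40) and Prr32 by 4.69 (SE 0.38). Wdr86 differed by 4.25 (SE 0.48) and lay at -0.06 to 2.21 against -6.00 to -1.92. Otx2os1 and Bhmt were well above background on 1 of 9 choroid-poor arrays and Prr32 on 3, so these sizes rest on levels near background. Cltrn, which encodes collectrin, was not well above background on any choroid-poor array and was at least 5.92-fold higher in the choroid-rich class, as was Tmem184a at least 7.38-fold.

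Of genes called higher that had several probes, 467 of 518 had all probes in that direction, and of genes called lower 481 of 534 did. Among those that rose more than 2-fold the count was 81 of 85, and among those that fell more than 2-fold it was 16 of 16.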
